A study of Arabidopsis thaliana with 26 samples.

Results

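The plastid genome of Arabidopsis thaliana encodes the core subunits of the photosynthetic machinery, and 43 of the 22810 probe sets on the ATH1 array were named with 1 such gene each. A probe set was taken when the platform annotation gave it exactly 1 gene whose symbol was rbcL, or a symbol of the psa, psb, pet, atp or ndh series of the chloroplast genome. All 43 genes are placed on the plastid genome by RefSeq (assembly TAIR10.1), which bears out the name. They divide into 15 photosystem II genes, 10 genes of the NDH complex, 6 of ATP synthase, 6 of the cytochrome b6f complex, 5 of photosystem I and 1 Rubisco gene. A further probe set of the NDH series carried several genes and was left out. Each gene had a single probe set, so no second probe set could be set beside it.

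All samples were total RNA from the whole aerial tissue of col-0 plants at growth stage 1.14, with 18 plants pooled for each array and 2 arrays in each of 13 groups. The agar groups came from the EMS mutant lines sf6, sf3 and sf2 (sfr6, sfr3 and sfr2 in the title of the series) and from the wild type (wt), all grown on 0.5x MS agar in continuous light at 21 °C, with a humidity of 100%. Each of these lines was sampled after 24 h at 4 °C under continuous light of 100 microEinsteins (cold) and untreated (control), and sf6 and wt also after the cut aerial tissue had dried for 2 h in a laminar airflow (drought). The other 3 groups, coded 24f, 03f and 00f, were plants on compost, kept under a daily 9 h of light at 4 °C and a humidity of 70%. No genotype is given for them, and the code is not explained in the sources used here. Compost had been treated with the insecticide Intercept. Drought could be set only against intact control plants, and each mutant is a single line. Transcripts of the mutated genes were not analysed here. Of 14 listed green leaf markers 4 had a probe set, and none of these was at 0 on any array. That does not test the tissue, since the root marker PYK10 was not at 0 on any array either.

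Photosystem II splits water and passes electrons through the cytochrome b6f complex to photosystem I, and the proton gradient built along the way drives ATP synthase. The NDH complex returns electrons to the chain, and Rubisco fixes carbon dioxide in the stroma. Each of these complexes joins subunits made in the plastid to subunits encoded in the nucleus and imported. The gene psbN, counted here with photosystem II, encodes an assembly factor and lies on the opposite strand within the run of psbB. Many plastid genes are transcribed together with their neighbours and the long transcripts are then cut. Most plastid mRNAs lack a stable poly(A) tail, whereas cDNA was primed here with an oligo(dT) primer, per the labels' protocols. Intensities are therefore compared only between arrays, for 1 probe set at a time. A difference between arrays can still include a difference in poly(A) tails or in priming, which was not tested.

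The members were among the brightest probe sets of the array. Their mean intensity over the 26 arrays lay between 74.9 for ndhF and 3052.7 for atpB, and 35 of the 43 had a mean rank above the 90th percentile of all probe sets. No value was 0, and all 43 passed the filter on dim probe sets in both fits. These values rank probe sets and not transcripts, since each probe set has its own probes. For description, the probe set of highest mean intensity was taken in each complex: atpB (the catalytic beta subunit of ATP synthase), psbA (the D1 reaction centre protein of photosystem II), psaB (a reaction centre protein of photosystem I), petB (cytochrome b6) and ndhI (an iron-sulphur subunit of NDH). The intensity of atpB lay between 2518.5 and 3777.6 on the 26 arrays, while the highest value of any probe set on an array was 3013.6 to 4480.8, so the brightest members lay near the top of the measured range. Calls below are those of limma on log2(intensity + 16), with p-values adjusted over all probe sets of a fit and a threshold of 0.05. Differences without such a call are given as values.

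The 2 arrays of a group often differed in the level of nearly all members at once. In 24f, replicate 2 exceeded replicate 1 for 41 of the 43 members, with a median log2 difference of 0.67, while the median over all probe sets was -0.02. In sf6 cold, replicate 2 was above replicate 1 for 40 of the 43, with a median of 0.53, and in sf3 cold it was above for only 4, with a median of -0.28. The 26 probe sets of other plastid genes, mostly for ribosomal proteins and RNA polymerase, differed alike, by 0.47, 0.55 and -0.34 in those 3 groups. Both psbE and psbF went the other way, with differences of -0.60 and -0.22 in sf6 cold and -0.11 and -0.15 in 24f. The largest differences within 24f were those of psbB (1.79) and atpH (1.64).

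These gaps tended to run against the scanner's own background reading, but not in every group. In sf6 control the background gap (replicate 2 minus 1) was -35.12, near the -35.85 of 24f, with a member gap of only 0.1. In sf3 control and sf3 cold background gaps of -4.77 and -2.23 went with member gaps of 0.26 and -0.28. That average was 70.61 on 24f replicate 2 and 106.46 on replicate 1, and 73.22 on sf6 cold replicate 2 and 88.66 on replicate 1. Over the 13 groups, the replicate gap of the members and that of the background had a Pearson r of -0.63 (permutation p = 0.0229, adjusted p = 0.0306 over 4 scanner measures) and a Spearman rho of -0.62 (permutation p = 0.0275, adjusted p = 0.0367). Without the 2 groups farthest from the median background gap, r was -0.55 over 11 groups. The scanner's noise measure gave r of -0.66 (permutation p = 0.0172) and its raw pixel noise gave r of -0.70 (permutation p = 0.00774), which became -0.39 and -0.50 without the 2 farthest groups. The count of outlier cells gave r of 0.35 (permutation p = 0.223). Each gap takes its sign from the replicate numbers in the labels, so another numbering could give other values of r and p. The part of these readings in the results below was not tested, and results that rest on 1 array are given with and without it.

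**Figure D1:**
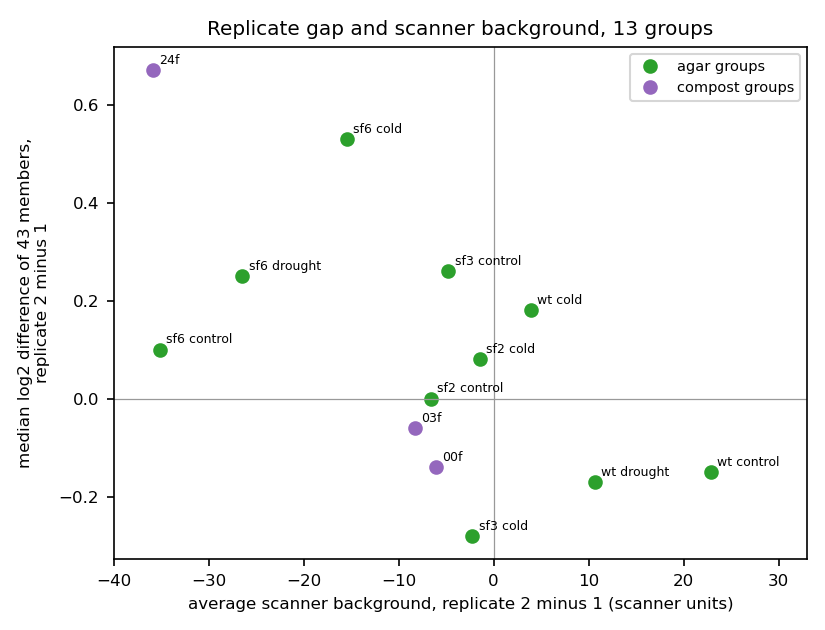
Each point is 1 of the 13 groups; the x axis is the difference of the scanner's average background between replicate 2 and replicate 1 (scanner units), and the y axis is the median log2 difference of the 43 members between the same arrays. Groups 24f (0.67) and sf6 cold (0.53) lie highest, both with a lower background on replicate 2, and sf3 cold (-0.28) lies lowest. Group sf6 control, with a background difference near that of 24f, lies at 0.1.

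**Figure D2:**
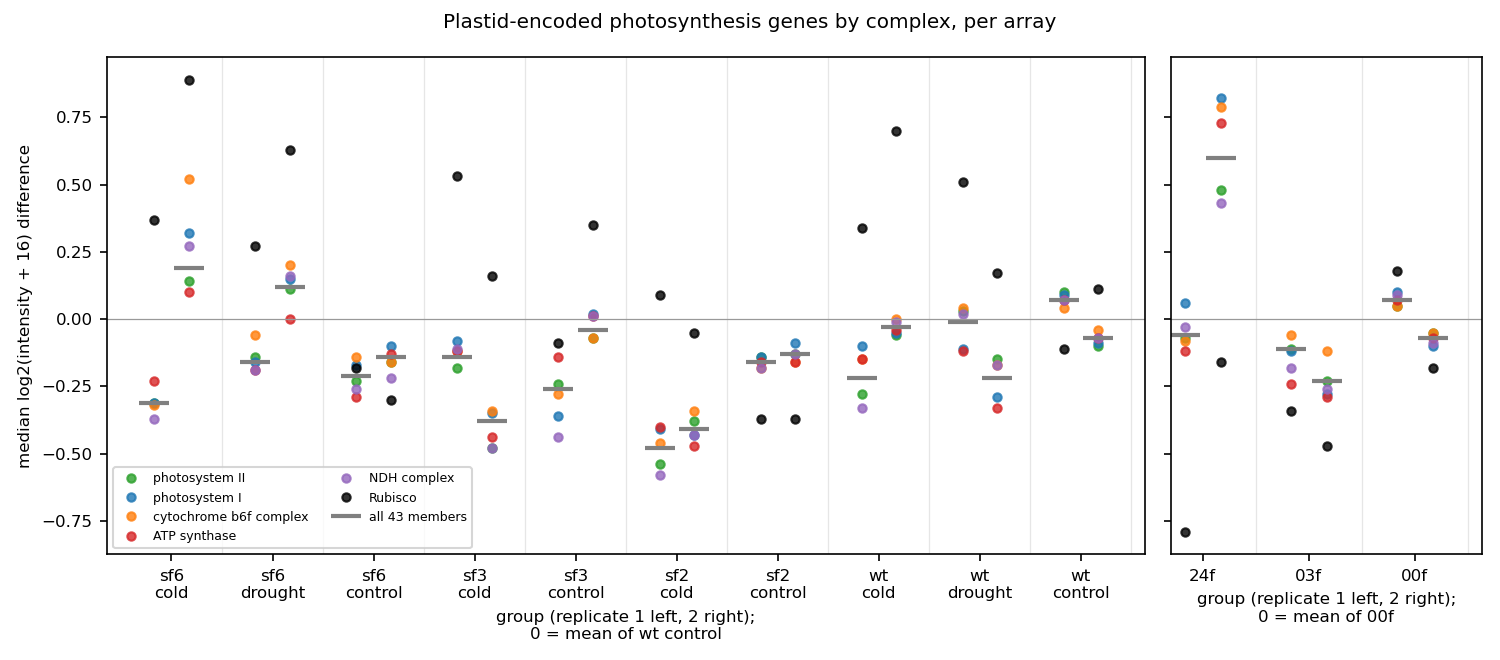
Median log2(intensity + 16) of each complex on each array, set against the mean of wt control (agar groups, left) or of 00f (compost groups, right); coloured points are complexes and grey bars the median of all 43 members. The complexes move together from array to array, sf2 cold lies at -0.48 and -0.41, and Rubisco (rbcL) stands above the bar on every cold and drought array, at 0.37 and 0.89 in sf6 cold.

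After 24 h at 4 °C the plastid photosynthesis genes were called in small numbers in the fit of the 20 agar arrays, while a larger share of all probe sets was called. Fitting the compared groups alone gave more calls in sf2 and wt, with counts in the closing section. Calls were made for 6 members in sf6 (4 higher, 2 lower), 4 in sf3 (all lower), 11 in sf2 (all lower) and 5 in wt (1 higher, 4 lower). Over all 17059 probe sets tested, cold called 45.5% in sf6, 44.3% in sf3, 42.8% in sf2 and 47.2% in wt. In this fit of the 20 agar arrays the share of members called was below that background in each line (14%, 9.3%, 25.6% and 11.6%). Higher calls made up 19.6% of all probe sets in sf6 and 20.7% in wt, and lower calls 25.9% in sf6, 24.2% in sf3, 23% in sf2 and 26.4% in wt. In sf2 the 25.6% of members called, all lower, was thus near the 23% of all probe sets called lower. The median log2 change of the members was 0.13 in sf6, -0.15 in sf3, -0.34 in sf2 and -0.10 in wt, beside medians over all probe sets of -0.06, -0.05, -0.02 and -0.05. Scaling each array to its median probe set turned the wt median to 0.04, with 2 higher and 1 lower call in wt. Single arrays moved the counts: without sf6 cold replicate 1 there were 18 calls in sf6 (16 higher, 2 lower), and without sf6 cold replicate 2 there were 3 (petN, ndhJ and rbcL, all higher). Without sf3 cold replicate 2 limma made 0 calls in sf3 (1 member at an unadjusted p under 0.05), and without sf3 control replicate 1 it made 2. In sf2, 2 calls (psbE and psbF) were left without cold replicate 1, 4 without control replicate 2 and 7 without control replicate 1, and in wt 1 call was left without control replicate 1 and 2 without cold replicate 2. Whether replicate arrays stem from separate cultures is not in the labels, so these p-values measure only the spread between arrays, which may be technical. In whole aerial tissue, fewer green cells, less RNA per cell and a difference in tails or priming cannot be told apart.

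**Figure D3:**
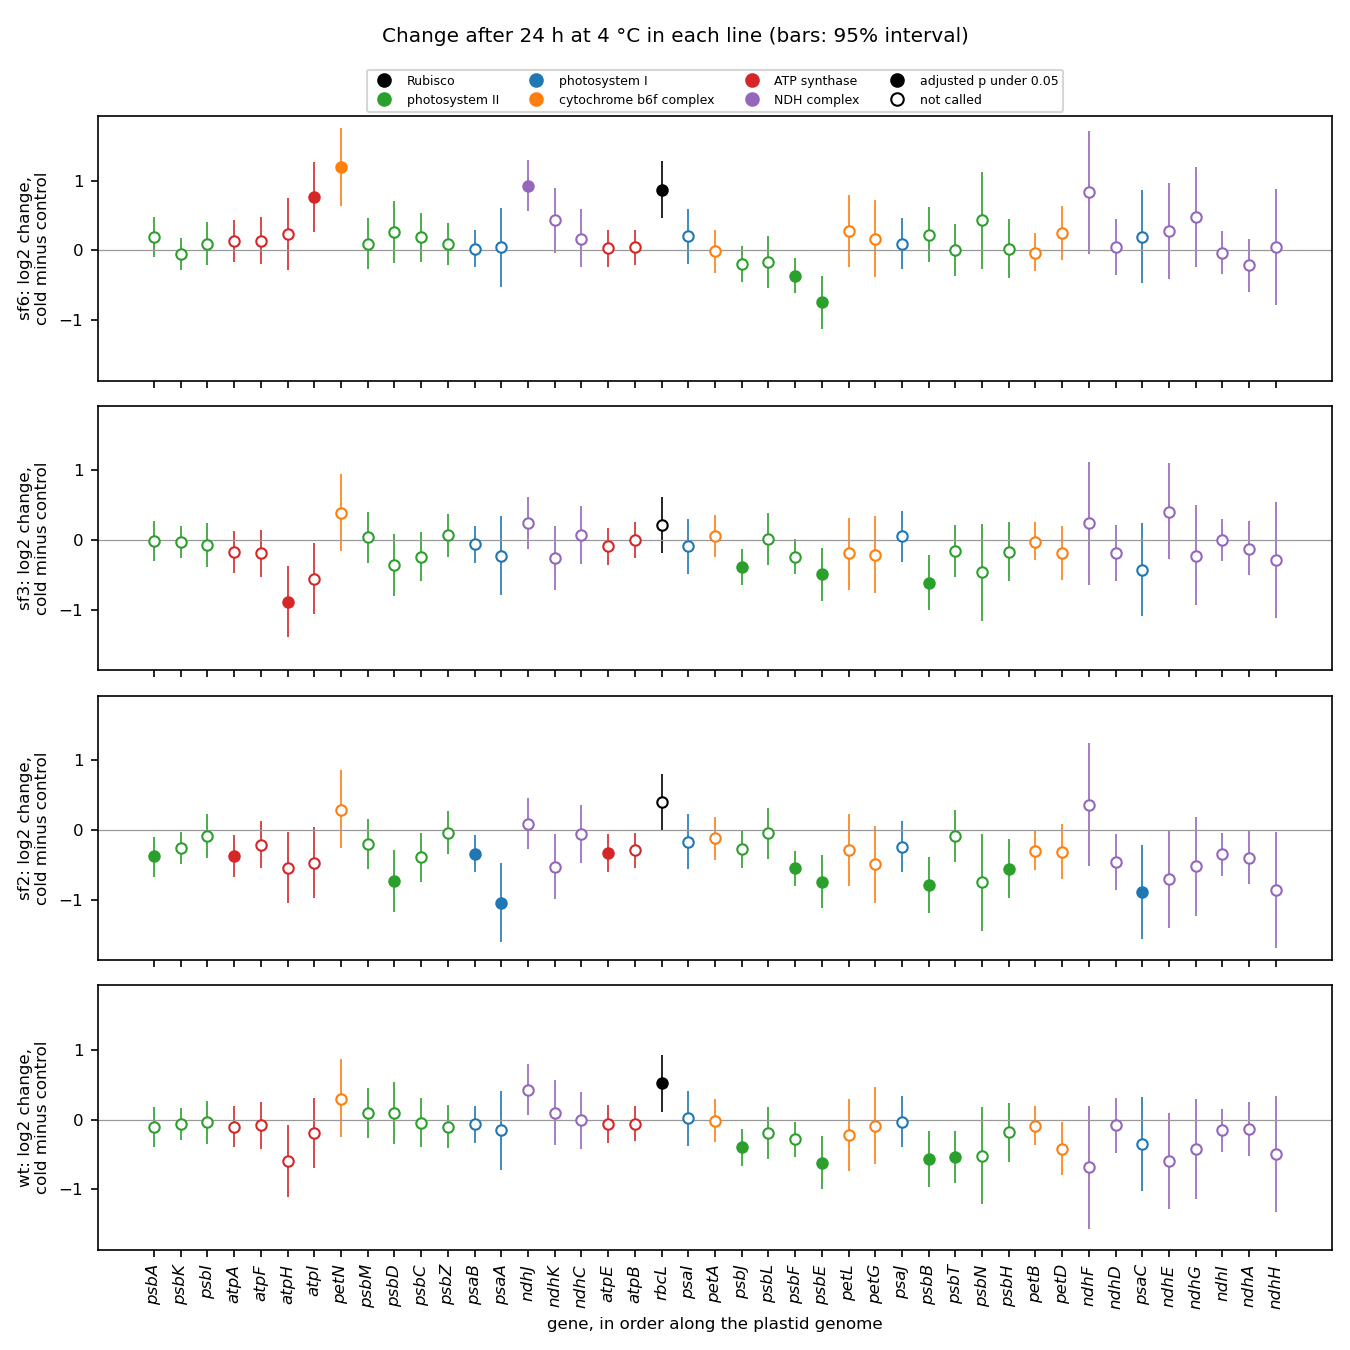
Log2 change (cold minus control) of each of the 43 members in sf6, sf3, sf2 and wt, top to bottom, with its 95% interval; genes run along the x axis in their order on the plastid genome, filled symbols have an adjusted p under 0.05 and colours mark complexes. psbE lies below 0 and filled in all 4 lines, and rbcL, petN and ndhJ lie above 0 in all 4 but are all filled in sf6 alone.

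The photosystem II gene psbE, for the alpha subunit of cytochrome b559, was the 1 member called lower after cold in every line, with the least secure call in sf3. Its intensity was 1085 and 712.7 in sf6 cold, against 1375.7 and 1598.8 in sf6 control. It was 1277.9 and 835 in sf3 cold, against 1373.8 and 1554.7 in sf3 control. In sf2 it was 804.2 and 836.2 after cold, against 1281 and 1484.7 in control plants, and in wt 1108.4 and 988.4 after cold, against 1606.7 and 1616.8. No cold array reached the lowest control array, also across lines. Of the 43 members psbE was the only one whose 8 cold arrays did not overlap the 8 control arrays on the deposited scale, beside 35.5% of all probe sets (16% with cold higher, 19.5% with cold lower). The fitted log2 change was -0.74 in sf6 (SE 0.18, adjusted p = 0.0027), -0.49 in sf3 (SE 0.18, adjusted p = 0.0338), -0.74 in sf2 (SE 0.18, adjusted p = 0.00304) and -0.62 in wt (SE 0.18, adjusted p = 0.00942) by limma. The 4 values correspond to 59.7%, 71%, 59.9% and 65.3% of the control level on the log2(intensity + 16) scale. Without sf3 cold replicate 2 the sf3 change was -0.19 (adjusted p = 0.459), without sf3 cold replicate 1 it was -0.80 (adjusted p = 0.00251) and without sf3 control replicate 2 it was -0.41 (adjusted p = 0.167). The sf3 call was also lost with arrays scaled to their median probe set (-0.38, adjusted p = 0.102), without the filter on dim probe sets (adjusted p = 0.0633) and with the sf3 groups fitted alone (adjusted p = 0.106). Without sf6 cold replicate 2 the sf6 change was -0.45 (adjusted p = 0.065), without wt cold replicate 2 the wt change was -0.53 (adjusted p = 0.0725), and in sf2 the call held in all 12 other settings tried.

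Next to psbE on the plastid genome stand psbF, for the beta subunit of the same cytochrome, and then psbL and psbJ, for small photosystem II subunits. These 4 genes form 1 run with no other protein gene between them. The intensity of psbF was 1580.7 and 1355.3 in sf6 cold, against 1859.3 and 1906 in sf6 control, and 1745.9 and 1372.2 in sf3 cold, against 1715 and 1941.9 in sf3 control. It was 1142.3 and 1249 in sf2 cold, against 1714 and 1807.3 in sf2 control, and 1605.1 and 1614.2 in wt cold, against 1927 and 2003 in wt control. Cold arrays lay below control arrays of the same line in sf6, sf2 and wt, and overlapped them in sf3. The change of psbF was called in sf2 (-0.55, SE 0.12, adjusted p = 0.00106) and in sf6 (-0.36, SE 0.12, adjusted p = 0.0191), and was -0.24 in sf3 (adjusted p = 0.117) and -0.28 in wt (adjusted p = 0.0562). The sf6 call was lost without sf6 cold replicate 2 (-0.25, adjusted p = 0.164), sf6 control replicate 1 (-0.38, adjusted p = 0.0632) or sf6 control replicate 2 (-0.34, adjusted p = 0.0894), and also under median scaling (-0.24, adjusted p = 0.118).

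The other 2 genes of the run did not follow psbE to the same size. For psbJ the arrays read 1090.3 and 987.9 in sf6 cold, 1006.4 and 942.3 in sf3 cold, 942.2 and 933.8 in sf2 cold and 933.4 and 1196.8 in wt cold. Its control arrays read 1163.7 and 1213.7 in sf6, 1285.2 and 1261.3 in sf3, 1180.5 and 1107.3 in sf2 and 1476.2 and 1332.4 in wt. In each line both cold arrays were below both control arrays, with calls in sf3 (-0.38, SE 0.12, adjusted p = 0.0183) and wt (-0.40, SE 0.12, adjusted p = 0.0126) and none in sf6 (-0.19, adjusted p = 0.221) or sf2 (-0.28, adjusted p = 0.0766). The sf3 call was lost without sf3 cold replicate 2 (-0.33, adjusted p = 0.104), control replicate 1 (-0.37, adjusted p = 0.0719) or control replicate 2 (-0.39, adjusted p = 0.0537). The wt call was lost without wt cold replicate 1 (-0.23, adjusted p = 0.201) and when wt control replicate 1 was left out (-0.33, adjusted p = 0.103). Median scaling ended both, at -0.27 in sf3 (adjusted p = 0.0784) and -0.27 in wt (adjusted p = 0.0765), and fitting the sf3 groups alone ended the sf3 call (adjusted p = 0.051). For psbL no line had a call, with changes of -0.16 in sf6, 0.02 in sf3, -0.05 in sf2 and -0.19 in wt, and cold and control arrays overlapped in sf3, sf2 and wt. Over the 13 group means psbE and psbF had a Pearson r of 0.97, one of the highest of the 903 member pairs, whose median r was 0.68. Pairs that are not neighbours, such as atpE with petB and psbA with ndhD, also had an r of 0.97. The 61 pairs of neighbours had a median r of 0.78 and the other 842 pairs 0.68, all as a description of means that share arrays and scaling.

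**Figure D4:**
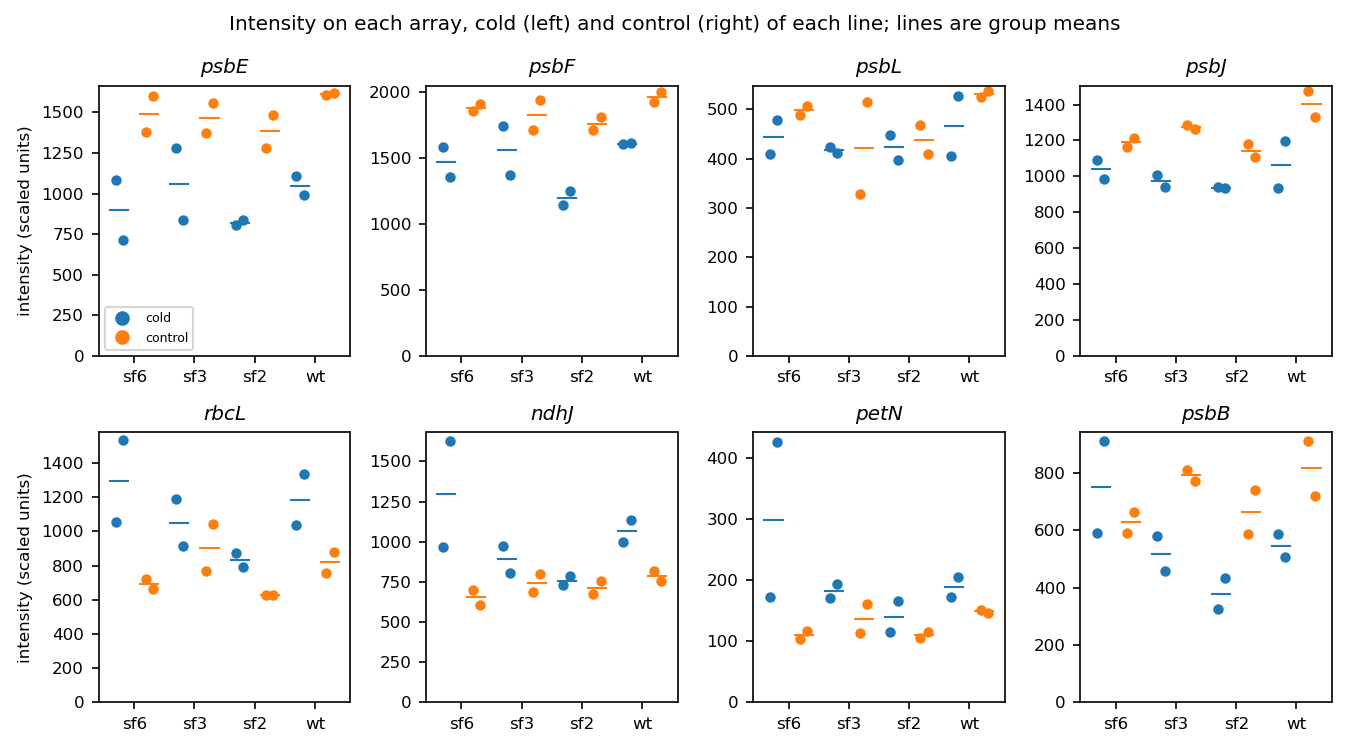
Intensity (scaled units, from 0) of 8 members on each cold array (blue, left) and control array (orange, right) of sf6, sf3, sf2 and wt, with lines at group means. For psbE all 8 cold points lie below all 8 control points; for psbL the colours overlap; petN on sf6 cold replicate 2 (426.1) stands far above its replicate (172.9).

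Elsewhere in photosystem II the calls after cold were all in the lower direction and mostly in sf2. The gene psbB, for the chlorophyll-binding antenna CP47, was called in 3 lines. Its intensity was 578.2 and 456.5 in sf3 cold, against 809.2 and 772.2 in sf3 control, and 324.5 and 432.6 in sf2 cold, against 588.4 and 739.1 in sf2 control. In wt it was 586 and 505.9 after cold, against 911.2 and 720.3, and in sf6 it was 590.4 and 909.5 after cold, against 591.7 and 662.7. Cold and control arrays did not overlap in sf3, sf2 and wt, and they did in sf6. The log2 change was -0.61 in sf3 (SE 0.19, adjusted p = 0.0143), -0.79 in sf2 (SE 0.19, adjusted p = 0.00257), -0.56 in wt (SE 0.19, adjusted p = 0.021) and 0.22 in sf6 (adjusted p = 0.361). The difference between the sf6 and wt responses was 0.78 (SE 0.27, adjusted p = 0.281 by limma) and is not called. The psbB call in sf3 was lost without cold replicate 2 (-0.44, adjusted p = 0.147) or control replicate 1 (-0.57, adjusted p = 0.065), and that in sf2 without cold replicate 1 (-0.59, adjusted p = 0.0509). In wt it was lost without cold replicate 2 (-0.46, adjusted p = 0.136) and, on the control side, without replicate 1 (-0.39, adjusted p = 0.186), and under median scaling it was -0.42 (adjusted p = 0.0763).

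Photosystem II as a whole had 2 of its 15 genes called in sf6, 3 in sf3, 6 in sf2 and 4 in wt, all lower, with median log2 changes of 0.09, -0.17, -0.38 and -0.18. The 6 of sf2 were psbE, psbF and psbB with psbD (the D2 reaction centre protein, -0.73, SE 0.21), psbH (a small phosphoprotein, -0.56, SE 0.20) and psbA (-0.38, SE 0.13), and in wt psbT, a small subunit beside psbB, was the fourth (-0.53, SE 0.18, adjusted p = 0.019). The intensity of psbA was 2007 and 2217.1 in sf2 cold, against 2707.8 and 2798.8 in sf2 control. Cold arrays were lower in sf2, overlapped in sf3 and wt, and were just higher in sf6, where its change was 0.19 (adjusted p = 0.269). The changes were -0.10 in wt and -0.01 in sf3, with no call. Without sf2 cold replicate 1 the sf2 calls of psbA, psbD and psbH were lost, at -0.31, -0.38 and -0.35. Quantile normalization gave -0.12 for psbA (adjusted p = 0.222), and its call was also lost under median scaling (-0.33) and without the filter (adjusted p = 0.0645), as was that of psbH (-0.51 under median scaling, adjusted p = 0.066 without the filter). Leaving out any other sf2 array ended the psbA call (-0.45 to -0.36), either control array the psbH call (-0.60 and -0.52) and control replicate 2 the psbD call (-0.71), and the wt call of psbT was lost without wt control replicate 1 (-0.42), without wt cold replicate 1 (-0.48) or under median scaling (-0.40).

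Photosystem I genes were called in sf2 alone. For psaA, which encodes the partner of PsaB in the reaction centre, the arrays read 540.8 and 1093.8 in sf2 cold, against 1522.2 and 1699.5 in sf2 control. The same gene read 1395.7 and 1497.9 in sf6 cold against 1312.4 and 1489.7 in control, 1749.9 and 1085.5 in sf3 cold against 1351.3 and 1915 in control, and 1504.7 and 1621.5 in wt cold against 1963.2 and 1537.1 in control. The groups were apart in sf2 and overlapped in the other lines. Its change in sf2 was -1.05 (SE 0.27, adjusted p = 0.00439), with psaC, the terminal iron-sulphur protein, at -0.89 (SE 0.32, adjusted p = 0.0317) and psaB at -0.34 (SE 0.13, adjusted p = 0.0383). Without sf2 cold replicate 1 these were -0.55, -0.58 and -0.35, with adjusted p of 0.12, 0.27 and 0.116. The psaC call was also lost without either control array (-0.94 and -0.84), and the psaB call without any 1 of the 4 arrays. Under quantile normalization psaB was at -0.07 (adjusted p = 0.31). Its call was also lost under median scaling (-0.29, adjusted p = 0.0824), and without the filter on dim probe sets neither psaB (adjusted p = 0.0764) nor psaC (adjusted p = 0.0648) was called. The sf2 response of psaA minus that of wt was -0.90 (SE 0.38, adjusted p = 0.388) and not called, so the lines are not shown to differ.

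Genes of ATP synthase were called in 3 lines, and not in the same direction. The gene atpH, for the subunit that forms the membrane rotor ring, read 868 and 457 in sf3 cold, against 1204.2 and 1145.9 in sf3 control, and 693.8 and 986.4 in sf6 cold, against 589.8 and 831.7 in sf6 control. It read 463.2 and 416.3 in sf2 cold, against 538.7 and 773.4 in sf2 control, and 744.7 and 574.4 in wt cold, against 997.3 and 997.1 in wt control. Cold arrays were lower in sf3, sf2 and wt and overlapped in sf6. Its change was called in sf3 (-0.88, SE 0.24, adjusted p = 0.0068), where it was -0.43 (adjusted p = 0.172) without sf3 cold replicate 2 and -1.33 without sf3 cold replicate 1, and was -0.60 in wt (adjusted p = 0.0526), -0.54 in sf2 (adjusted p = 0.0835) and 0.24 in sf6 (adjusted p = 0.462). In sf2, atpA (the alpha subunit) was called at -0.37 (SE 0.14, adjusted p = 0.0466) and atpE (the epsilon subunit) at -0.33 (SE 0.13, adjusted p = 0.0482). Leaving out any 1 of the 4 sf2 arrays ended both of those calls, with values of -0.44 to -0.30 for atpA and -0.36 to -0.30 for atpE. Quantile normalization brought atpA to -0.16 (adjusted p = 0.152) and atpE to -0.07 (adjusted p = 0.305), and both calls were also lost under median scaling (-0.32 and -0.28) and without the filter (adjusted p = 0.0884 and 0.0957). In sf6 the membrane subunit gene atpI was called higher (0.76, SE 0.24, adjusted p = 0.015), with 95.2 and 224.6 on cold arrays against 71.6 and 90 on control arrays. Without sf6 cold replicate 2 it was 0.21 (adjusted p = 0.376), and without sf6 control replicate 1 it was 0.63 (adjusted p = 0.116), while without sf6 cold replicate 1 it was 1.32. With the sf6 groups fitted alone it was not called (adjusted p = 0.0812).

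Genes of the cytochrome b6f complex had 1 call after cold in the 4 lines. It was petN, for the smallest subunit of the complex, with 172.9 and 426.1 in sf6 cold, against 104 and 117.2 in sf6 control. The other lines had 170.5 and 194.7 in sf3 cold against 113.5 and 161 in control, 115.8 and 165.4 in sf2 cold against 105.1 and 115.6 in control, and 172 and 205.2 in wt cold against 151.4 and 147.3 in control. Cold arrays were above the control arrays of their own line in all 4 lines, by a small margin in sf2 and sf3. The change was 1.19 in sf6 (SE 0.26, adjusted p = 0.00128), and 0.39 in sf3, 0.29 in sf2 and 0.30 in wt without a call (adjusted p = 0.249, 0.398 and 0.369). The sf6 call held in all 12 other settings, with 0.58 (adjusted p = 0.0235) when sf6 cold replicate 2 was left out and 1.81 when replicate 1 was. The gene petB had changes of -0.30 to -0.03 in the 4 lines and no call.

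Of the 10 NDH genes 1 was called after cold, ndhJ in sf6. Its intensity was 965.3 and 1628.9 in sf6 cold, against 702.6 and 608.8 in sf6 control, and 998.1 and 1135.2 in wt cold, against 818.2 and 756.5 in wt control. It was 974.6 and 807.2 in sf3 cold, against 690.2 and 800.4 in sf3 control, and 732.6 and 784.6 in sf2 cold, against 674.5 and 755.5 in sf2 control. Cold and control arrays were apart in sf6, sf3 and wt and overlapped in sf2. The change was 0.92 in sf6 (SE 0.17, adjusted p = 0.000318), 0.25 in sf3 (adjusted p = 0.262), 0.08 in sf2 (adjusted p = 0.729) and 0.43 in wt (adjusted p = 0.051). The sf6 call held in all 12 other settings, with a change of 0.55 (adjusted p = 0.00545) without sf6 cold replicate 2. Its neighbours ndhK and ndhC, which encode further NDH subunits, had changes of 0.43 and 0.17 in sf6 and no call in any line.

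The gene rbcL, for the large subunit of Rubisco, was higher after cold in 2 lines. Its intensity was 1057.9 and 1533.1 in sf6 cold, against 718.8 and 662.1 in sf6 control, and 1036.7 and 1333.9 in wt cold, against 758.6 and 881.2 in wt control. In sf3 cold it was 1190 and 913.6, against 767.6 and 1043.7 in sf3 control, and in sf2 cold 872.2 and 790.8, against 627.5 and 627.1 in sf2 control. Only sf3 had overlapping arrays. The change was 0.87 in sf6 (SE 0.19, adjusted p = 0.00137), 0.52 in wt (SE 0.19, adjusted p = 0.0362), 0.40 in sf2 (adjusted p = 0.11) and 0.22 in sf3 (adjusted p = 0.391). The sf6 call held in all 12 other settings, while the wt call was lost when cold replicate 2 was left out (0.34, adjusted p = 0.272). Leaving out either control array also ended it, at 0.41 without replicate 1 (adjusted p = 0.194) and 0.62 without replicate 2 (adjusted p = 0.0505), as did dropping the filter on dim probe sets (adjusted p = 0.066).

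To separate a gene from the level shared by the members on an array, each log2 value was also expressed relative to the median of the members outside its own run of neighbours, a measure chosen after the values had been seen. On this scale the 8 cold arrays and the 8 control arrays were apart for 4 of the 43 members. Of all probe sets 17.8% were apart (9.53% with cold higher, 8.32% with cold lower). These were set against the median of all 43 members, a slightly different scale. The share of members was below that of all probe sets in both directions. The relative level of rbcL ran from -0.06 to 0.30 on cold arrays, with a median of 0.17, and from -0.69 to -0.09 on control arrays, with a median of -0.50. For ndhJ the cold range was 0.21 to 0.67 and the control range -0.42 to -0.08, and for petN -0.14 to 0.93 and -0.63 to -0.20. These 3 genes lay higher on every cold array than on any control array, whereas psbE lay lower, at -1.14 to 0.07 on cold arrays and 0.11 to 0.44 on control arrays. No test was made of these relative values.

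Nuclear photosynthesis genes, which here include some that do not encode subunits of these complexes (such as RCA), were mostly lower after cold. Of 15 nuclear photosynthesis genes with a named probe set, out of 97 symbols listed, 8 fell in sf6, 9 in sf3, 14 in sf2 and 12 in wt, and 1 rose, in wt. Their median log2 changes were -0.37, -0.46, -0.51 and -0.51. The share called was 53.3% in sf6, 60% in sf3, 93.3% in sf2 and 86.7% in wt. Over all probe sets it was 45.5%, 44.3%, 42.8% and 47.2%. The NDH subunit genes NdhS and NdhL, for example, changed by -1.14 (SE 0.17) and -0.82 (SE 0.12) in sf6 and by -0.91 (SE 0.17) and -0.84 (SE 0.12) in wt, and the antenna gene LHCB4.2 by -1.76 (SE 0.21) and -2.11 (SE 0.21). Among genes for assembly and repair of thylakoid complexes, PAM68, a photosystem II assembly factor, changed by -1.07 (SE 0.18) in sf6 and -1.61 (SE 0.18) in wt, and 3 of 9 such genes fell in each mutant and 4 in wt. These are 33.3% in each mutant and 44.4% in wt, beside 23% (sf2) to 26.4% (wt) of all probe sets called lower. Among 6 tested genes for plastid gene expression, 1 fell in sf3 and 1 in wt (16.7% each). No test was made between the nuclear and the plastid genes.

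Genes of the plastid genome outside photosynthesis were also measured. Of 26, 5 were called in sf6 (3 higher, 2 lower), 2 in sf3 (1 higher, 1 lower), 5 in sf2 (1 higher, 4 lower) and 4 in wt (1 higher, 3 lower). The gene rps16, for a ribosomal protein, rose by 1.36 (SE 0.14) in sf6 and by 1.16 (SE 0.14) in wt, and rps18 fell by 0.60 (SE 0.14) in sf6 and by 0.46 (SE 0.14) in wt. Of 17 tested mitochondrial genome probe sets, 4 were called in sf6, 1 in sf3, 1 in sf2 and 2 in wt. The shares called in sf6, sf3, sf2 and wt were 19.2%, 7.69%, 19.2% and 15.4% for the 26 plastid genes. For the mitochondrial probe sets they were 23.5%, 5.88%, 5.88% and 11.8%. All were below those of all probe sets (45.5%, 44.3%, 42.8% and 47.2%).

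The 4 mesophyll markers with a probe set (LHCB4.1, LHCB4.2, PRK and RCA) had a summed intensity of 6797.8 to 9251.9 in sf6 cold, 6341.5 to 8313.5 in sf3 cold, 7213 to 7299 in sf2 cold and 7445.4 to 7950.3 in wt cold. Their sums in control plants were 11210.3 to 11294.6 in sf6, 10714.1 to 10895.7 in sf3, 11178.1 to 11989.7 in sf2 and 11227.8 to 12419.1 in wt, and none was at 0. Of the 4 markers, 2 fell in sf6, 2 in sf3, 4 in sf2 and 3 in wt. LHCB4.1, LHCB4.2 and RCA are also among the nuclear photosynthesis genes above, so their fall is not a separate reading. The root marker PYK10 was called lower after cold in every line, by limma, with changes of -0.60 in sf6, -0.67 in sf3, -0.67 in sf2 and -0.82 in wt, and its intensity was 803 to 1088.8 on cold arrays and 1285.9 to 1659.1 on control arrays. The probe set named FDH, listed for the epidermis, was called lower in sf3 (-0.68) and wt (-0.62). It had changes of 0.33 in sf6 and 0.55 in sf2 with no call. It was matched by symbol alone, and whether it measures the epidermal gene was not checked. The guard cell marker FMA had changes of -0.23 in sf6, -0.17 in sf3, -0.23 in sf2 and 0.14 in wt, with no call. The part of these markers in the results was not tested.

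Without treatment, no plastid photosynthesis gene was called between a mutant and wt by limma. At an unadjusted p under 0.05 there were 0 members in sf6, 1 in sf3 and 2 in sf2. Few probe sets of any kind were called: 0.0293% in sf6, 0.129% in sf3 and 0.111% in sf2. All 43 members had a negative value in sf6 control against wt control, with a median of -0.18 and a range of -0.64 to -0.01. In sf3 38 were negative (median -0.12) and in sf2 42 (median -0.14). These comparisons share the 2 wt control arrays, and the background was 64.08 on wt control replicate 1, the lowest of the 26 arrays, against 86.98 on replicate 2. Without wt control replicate 1 the 3 medians were -0.11, -0.06 and -0.08.

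No member was called for a difference between a mutant and wt in the response to cold. The response differences had medians of 0.21 for sf6 minus wt, 0.02 for sf3 minus wt and -0.21 for sf2 minus wt, with 0 calls each by limma, beside 0.0352%, 0.0528% and 0.117% of all probe sets called. At an unadjusted p under 0.05 there were 7, 1 and 2 members. The members with the smallest p were psbB (0.78, SE 0.27, adjusted p = 0.281) for sf6, ndhE (1.01, SE 0.46, adjusted p = 0.731) for sf3 and psbD (-0.83, SE 0.30, adjusted p = 0.3) for sf2, and the 95% interval of psbB ran from 0.22 to 1.34. Without sf6 cold replicate 1 the sf6 difference had 3 calls, atpI, petN and petD, all higher. The unequal counts of calls after cold therefore do not show that the lines responded differently, nor do these intervals show that they responded alike.

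Cutting and drying for 2 h called none of the 43 members in either line by limma, with 8 members at an unadjusted p under 0.05 in sf6 and 3 in wt. Over all probe sets drought called 3.93% in sf6 and 9.81% in wt. The medians of the members were 0.17 in sf6 and -0.12 in wt, where quantile normalization gave 0.01. Nearest to a call was rbcL in sf6, at 992.4 and 1277.3 after drying against 718.8 and 662.1 in control, which did not overlap (0.69, SE 0.19, adjusted p = 0.0546). In wt it read 1167.9 and 922 after drying, against 758.6 and 881.2 (0.34). The gene petN read 194 and 205.1 in sf6 drought against 104 and 117.2 in control (0.77, adjusted p = 0.121), and 263.1 and 235.9 in wt drought against 151.4 and 147.3 (0.68, adjusted p = 0.117). For psbE, drought arrays overlapped the control arrays in sf6 (1372.5 and 1541.8), and in wt they were 1591.7 and 1562.1, just below. Among the probe sets listed as markers, PYK10 was called lower in wt drought by limma (-0.81, adjusted p = 0.000435). FDH, whose match to the epidermal gene was not checked, was called higher in sf6 drought (0.87, adjusted p = 0.0364). The part of both in the result was not tested. The sf6 minus wt difference in drought response had 0 calls among the members and 0% over all probe sets, with 3 members at an unadjusted p under 0.05.

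Among the compost plants 1 array, 24f replicate 2, stood above the others in the median of the members. Set against the mean of 00f, that median was 0.60 on 24f replicate 2 and -0.06 on 24f replicate 1, against -0.11 and -0.23 on the 03f arrays. Set against 00f, 5 members were called in 24f, all higher, beside 42.4% of all probe sets (21% higher), with a median change of 0.27 over the members and 0.02 over all probe sets. Against 03f, 16 members were called, again all higher, beside 46.6% of all probe sets (26.7% higher), with medians of 0.42 and 0.09. In 03f against 00f no member was called by limma (3 at an unadjusted p under 0.05), beside 30.4% of all probe sets. The median change there was -0.15 over the members and -0.13 over all probe sets, and scaling to the median probe set brought these to 0.03 and 0.01. Without 24f replicate 2, whose members stood 0.67 above replicate 1, 5 members were still called against 00f but only 1 of them was among the first 5: psaA was higher, and psbD, ndhJ, rbcL and psbB were lower. Against 03f, 11 were then called, all higher, 10 of them among the 16. Without 03f replicate 1 the count against 03f was 7 and without 03f replicate 2 it was 8, and against 00f it was 2 without 00f replicate 1 and 1 without 00f replicate 2. Without 24f replicate 1, 32 members were called against 00f and 37 against 03f, all higher.

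**Figure D5:**
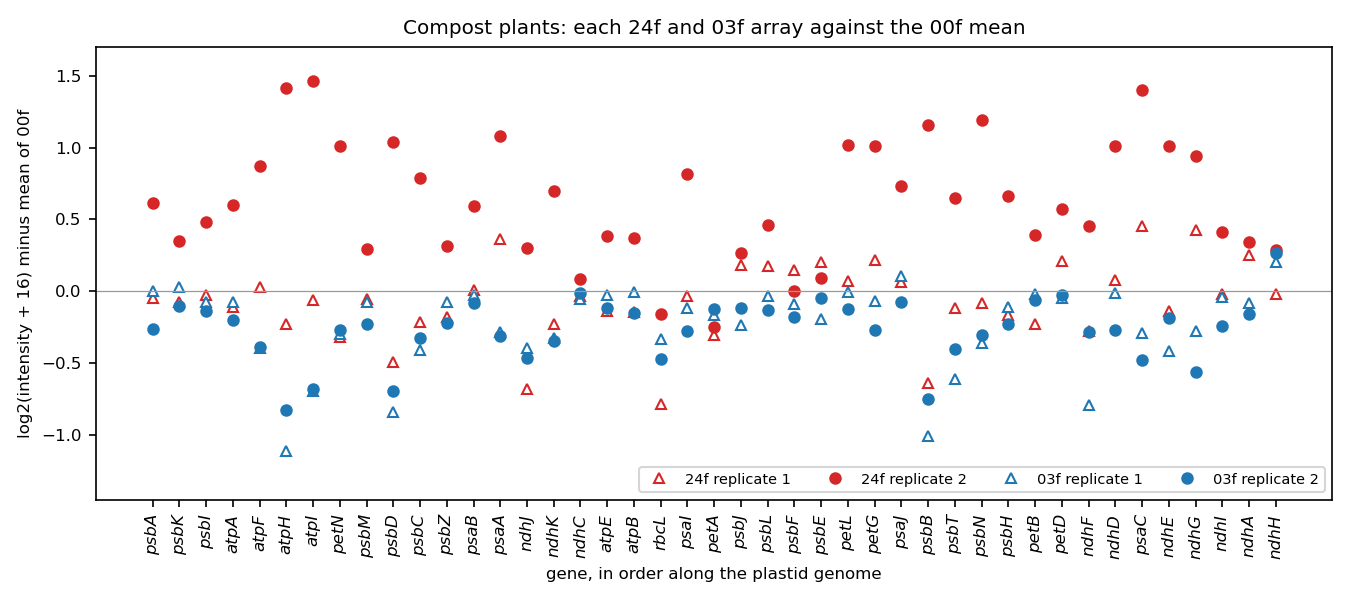
Log2(intensity + 16) of each member on the 24f arrays (red) and the 03f arrays (blue), replicate 1 as open triangles and replicate 2 as filled circles, minus the mean of the 00f arrays; genes follow their order on the plastid genome. The filled red circles of 24f replicate 2 (median 0.60) lie above 0 for most genes, while the open red triangles of 24f replicate 1 have a median of -0.06.

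The photosystem I genes psaA and psaC were called higher in 24f and lay higher on both of its arrays. The intensity of psaA was 1462.3 and 2410.2 in 24f, against 927.8 and 908.9 in 03f and 1089 and 1176.6 in 00f. That of psaC was 503.3 and 986.5 in 24f, against 294.6 and 256.5 in 03f and 440.3 and 299.1 in 00f. Both 24f arrays exceeded every other compost array for each gene. Against 03f the changes were 1.02 for psaA (SE 0.20, adjusted p = 0.00163) and 1.31 for psaC (SE 0.26, adjusted p = 0.002), and both calls held in all 11 other settings, with 0.66 and 0.84 without 24f replicate 2. Against 00f they were 0.72 (SE 0.20, adjusted p = 0.0129) and 0.93 (SE 0.26, adjusted p = 0.0153), and without the filter neither was called (adjusted p = 0.0593 and 0.0753). Leaving out single arrays ended these calls too: 00f replicate 1 for psaA (0.67, adjusted p = 0.0837), and 00f replicate 2 (0.66, adjusted p = 0.134) or 24f replicate 2 (0.45, adjusted p = 0.121) for psaC. For psaA the change against 00f was 0.36 (adjusted p = 0.0264) without 24f replicate 2 and 1.08 without replicate 1, and for psaC it was 1.4 without replicate 1.

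In the NDH complex, ndhG, a membrane subunit encoded in the same run of genes as psaC, read 197.2 and 288.4 in 24f, against 114.6 and 91.2 in 03f and 167.5 and 121 in 00f. It was highest on the 24f arrays, with changes of 1.11 against 03f (SE 0.19, adjusted p = 0.000704) and 0.68 against 00f (SE 0.19, adjusted p = 0.0133). The first call held in all 11 other settings, and the second was lost without 00f replicate 2 (0.47, adjusted p = 0.116) or 24f replicate 2 (0.43, adjusted p = 0.128), and without the filter (adjusted p = 0.058). Together with ndhD and ndhA, called against 03f at 0.68 and 0.42, and with psaC, it made 4 calls among the 7 genes of that run. The ndhD change was 0.22 (adjusted p = 0.244) without 24f replicate 2 and 1.15 without replicate 1. Its call was also lost without either 03f array (0.81 and 0.55), under median scaling (0.50), without the filter (adjusted p = 0.13) and with 24f and 03f fitted alone (adjusted p = 0.0613). The ndhA call was lost without either 03f array (0.45 and 0.38) and under median scaling (0.24).

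The 2 largest changes of 24f against 03f among the members were in ATP synthase, at atpH and atpI. The intensity of atpH was 510.2 and 1629.1 in 24f, against 269.5 and 331.6 in 03f and 618.3 and 584.1 in 00f. Its 24f arrays lay above both 03f arrays but on either side of the 00f arrays, with changes of 1.56 against 03f (SE 0.38, adjusted p = 0.00638, 11 of 11 other settings) and 0.59 against 00f (adjusted p = 0.244). The change against 03f was 0.74 without 24f replicate 2 and 2.38 without replicate 1. The next genes of the same run, atpI and atpF, had changes of 1.39 (SE 0.35) and 0.84 (SE 0.22) against 03f. Without 24f replicate 2 these were 0.63 (adjusted p = 0.00829) and 0.42 (adjusted p = 0.0272), without replicate 1 that of atpI was 2.15, and without the filter neither was called (adjusted p = 0.0536 and 0.052). The arrays of atpI read 79.9 and 259.4 in 24f, against 45.8 and 46.4 in 03f and 89.5 and 78.9 in 00f.

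In the cytochrome b6f complex, petG, for a small subunit, read 206.1 and 369 in 24f, against 166.5 and 142.6 in 03f and 177.9 and 172.7 in 00f. Both 24f arrays were the highest, with changes of 0.78 against 03f (SE 0.21, adjusted p = 0.00988) and 0.61 against 00f (SE 0.21, adjusted p = 0.0342). The first was lost without 03f replicate 2 (0.68, adjusted p = 0.0613), and the second without either 00f array (0.63 and 0.59) or 24f replicate 2 (0.22, adjusted p = 0.244). Against 03f the change was 0.38 (adjusted p = 0.0476) without 24f replicate 2 and 1.18 without replicate 1, and against 00f it was 1.01 without replicate 1. The call against 00f was also lost under quantile normalization (0.60, adjusted p = 0.0557) and without the filter (adjusted p = 0.111). Photosystem II had 6 of 15 genes called against 03f and 0 against 00f. The largest was psbB, at 302.2 and 1086.3 in 24f, against 230.4 and 277.5 in 03f and 436.7 and 524.3 in 00f. Its replicates straddled the 00f arrays, and its change against 03f of 1.14 (SE 0.41, adjusted p = 0.0431) was 0.24 (adjusted p = 0.245) without 24f replicate 2 and was also lost without either 03f array (1.01 and 1.27). Without 24f replicate 1 it was 2.04, and it was not called under median scaling (0.97), quantile normalization (adjusted p = 0.0564), a pseudocount of 1 (adjusted p = 0.0512), no filter (adjusted p = 0.15) or a fit of the 2 groups alone (adjusted p = 0.0648). The others were psbD (1.04), psbN (0.89), psbT (0.78), psbJ (0.40) and psbL (0.40), and petD, for subunit IV of the cytochrome b6f complex, was called at 0.43 against 03f and 0.39 against 00f. Without 24f replicate 2 the calls of psbD (0.27), psbN (0.25), psbL (0.26) and petD (0.25 against 03f, 0.21 against 00f) were lost, and those of psbT (0.39, adjusted p = 0.0396) and psbJ (0.36, adjusted p = 0.0315) held. Without 24f replicate 1 psbD was at 1.81 and psbN at 1.52. Under median scaling psbD (0.87), psbN (0.75), psbJ (0.22), psbL (0.22) and petD (0.27) were not called against 03f, and without the filter psbD (adjusted p = 0.125), psbN (adjusted p = 0.124) and petD (adjusted p = 0.0528) were not. Without 03f replicate 1 all of these calls against 03f were lost, at 0.97 for psbD, 0.86 for psbN, 0.67 for psbT, 0.34 for psbJ, 0.45 for psbL and 0.42 for petD, and without 03f replicate 2 all but that of psbT. The petD call against 00f was lost without either 00f array (0.42 and 0.36), under quantile normalization (0.37), without the filter (adjusted p = 0.0741) and with 24f and 00f fitted alone (adjusted p = 0.0549).

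The genes psbE and rbcL had no call in compost plants. For psbE the compost arrays read 925.8 and 856.4 in 24f, 698.2 and 775.6 in 03f and 796.7 and 807.4 in 00f, with changes of 0.15 in 24f against 00f (adjusted p = 0.351), 0.27 in 24f against 03f (adjusted p = 0.0851) and -0.12 in 03f against 00f (adjusted p = 0.473). For rbcL they read 744.6 and 1159.2 in 24f, 1024.2 and 930 in 03f and 1466.7 and 1145.9 in 00f. Both 24f and 03f arrays lay below the higher 00f array. Its changes were -0.47 in 24f against 00f (adjusted p = 0.0779) and -0.40 in 03f against 00f (adjusted p = 0.15), and it was one of 3 members with a negative value in 24f against 00f.

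Nuclear photosynthesis genes in compost plants had 4 of 15 higher and 2 lower in 24f against 00f (median 0.23), and 9 higher and 2 lower in 24f against 03f (median 0.48). In 03f against 00f 4 of the 15 and 7 of 9 assembly and repair genes were lower. Other plastid genome genes had 1 of 26 higher and 1 lower in 24f against 00f, and 8 higher and 0 lower in 24f against 03f. In 24f against 00f these are 40% of the nuclear and 7.69% of the plastid genes, beside 42.4% of all probe sets. In 24f against 03f they are 73.3% and 30.8%, beside 46.6%. In 03f against 00f 30.4% of all probe sets were called, beside 26.7% of the nuclear and 77.8% of the assembly and repair genes. Assembly and repair genes had 0 higher and 5 of 9 lower in 24f against 00f (55.6%, median -0.4). In 24f against 03f they had 3 higher and 2 lower (55.6%). Of 5 tested genes for plastid gene expression, 4 were lower in 24f against 00f (80%, median -0.55). Against 03f 1 was lower in 24f (20%), and in 03f against 00f 2 were lower (40%). The 4 mesophyll markers summed to 8547 to 10972.9 in 24f, 6277.6 to 6353 in 03f and 7750.6 to 8657 in 00f. LHCB4.1, LHCB4.2 and RCA among them are also in the list of nuclear photosynthesis genes. Between 24f and 03f 2 of these 4 markers were called higher and 0 lower. Probe sets listed for other tissues were also called higher in 24f. FDH, whose match to the epidermal gene was not checked, changed by 0.80 against 00f and 0.85 against 03f. The root marker PYK10 changed by 1.7 and 1.59. The intensity of FDH was 1593.6 to 1846.1 in 24f, 913.1 to 976.8 in 03f and 950.1 to 1011.9 in 00f, and that of PYK10 was 90.1 to 129.4 in 24f, 16.9 to 35.8 in 03f and 20.4 to 24 in 00f. The guard cell marker FMA was not called (0.20 and 0.01). The part of these markers in the result was not tested.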

How the data were processed

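Biotin-labelled cRNA of 26 samples was hybridised to 1-colour ATH1 arrays. The deposited intensity values are on a linear scale, scaled by the authors: each array has a mean of 100.01 once its lowest and highest 2% are trimmed. The summary software is not given in the sources used here. Groups and replicate numbers came from the labels. In R 4.3.3, limma 3.58.1 was fitted to log2(intensity + 16) with group means, an intensity trend and no replicate block, after control probe sets and those below the 25th percentile of mean intensity were left out. Fold changes on this scale understate those of dim genes. The 20 agar arrays (17059 probe sets, 10 residual degrees of freedom) and the 6 compost arrays (17062 probe sets, 3 residual degrees of freedom) were fitted apart, with Benjamini-Hochberg adjustment in each of 16 comparisons and 95% intervals from the fit. Correlations with scanner readings used 100000 permutations, two-sided, in scipy 1.17.1. On simulated data, 88.9% of log2 changes of size 1 were recovered in a model of cold in wt and 74.5% in 24f against 00f. The noise was drawn for each probe set independently, without the level that the members share on an array. Only changes of size 1 and 2 were planted, so recovery of smaller ones is not known.

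The members and lists were chosen with earlier results of these data known. Genes given with array values are rbcL, the brightest of each complex, the largest called change of each complex and comparison, and others (among them psbF, psbJ, psbL, psbT, psbD and ndhC) chosen after their values were seen. Names came from the platform annotation (13513 probe sets with 1 gene, 503 with several, 8794 with none) and gene order from RefSeq. The alternatives were another pseudocount, other scalings, no filter, the compared groups alone, a replicate block and leaving out arrays. The number of arrays limits the precision.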

Additional observations from a re-analysis of the deposited data

How the results depend on the processing

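No call given above for the fits of all arrays changed direction under any alternative. Values without a call could: those of psbD and psbB in 24f against 00f were positive, and negative without 24f replicate 2. The counts of called members held within 1.5 times of the values given except as follows. Scaling to the median probe set gave 3 calls for cold in wt, 2 in sf3, 6 in sf2 and 8 for 24f against 03f. Quantile normalization gave 1 for drought in sf6, 1 for 03f against 00f and 10 for 24f against 00f. Without the filter on dim probe sets limma called 5 for cold in sf2, 9 for 24f against 03f and 0 for 24f against 00f, where 7 members had an unadjusted p under 0.05. Fitting the compared groups alone, on fewer samples, gave 12 for cold in wt, 33 in sf2, 2 for drought in wt, 6 for drought in sf6 and 11 for 03f against 00f. The share over all probe sets under the alternatives is not given here, so these counts are not a result about the members. Without both arrays whose titles end in a repeat mark, cold in wt had 1. The replicate numbers of the labels share only a number: correlations of same-numbered deviations lay between -0.05 and 0.25, and the replicate block gave 3 calls for 03f against 00f, with the other counts within 1.5 times. The block ended 2 calls of single members, atpA (-0.37, adjusted p = 0.0559) and atpE (-0.33, adjusted p = 0.0576) for cold in sf2. The cause was not tested. Leaving out 1 array gave 1 to 4 calls for cold in wt, 3 to 18 in sf6, 0 to 5 in sf3, 2 to 10 in sf2, 1 to 32 for 24f against 00f, 7 to 37 for 24f against 03f, 0 to 3 for the difference of the sf6 and wt cold responses, and 0 for the other 9 comparisons.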
